A study of Mus musculus with 32 samples.

Results

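The Pam3CSK4 response of mouse blood progenitors lacking an upstream enhancer of Gata2 was compared with that of progenitors carrying it. The quantity described is a difference of responses: the log2 fold change from vehicle to Pam3CSK4 in the mutant line minus the same change in the wild-type line. Members were chosen by the groups in the sample titles, and 16 of the 32 libraries of the series carry this comparison, 4 in each of 4 groups. Both lines came from fetal liver and had been immortalised with ER-HOXB8, a fusion of a homeobox protein to a hormone-binding domain that keeps myeloid progenitors dividing while estradiol is present. The wild-type line is named hi-77+/+ and the mutant line hi-77-/-, with the genotype Gata2 -77-/-. All groups shared the medium (OPTI-MEM with serum, SCF-conditioned medium, b-estradiol and G418), and each line received vehicle or Pam3CSK4 at 100 ng/ml for 4 h. The other 16 libraries, the same 2 lines with IFNg (interferon gamma, 1 ng/ml) or with IFNg plus Pam3CSK4, are used only for the last comparison. The labels do not say whether the 4 libraries of a group were separate cultures, and each genotype is 1 line. P-values therefore measure only the spread between these samples, and the deletion cannot be told apart from any other difference between the lines. One such difference was visible in Xist, which coats the inactive X chromosome: it had 6 counts in the wild-type vehicle and 6 in the wild-type Pam3CSK4 group, against 111162 and 106840 in the mutant groups.

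Pam3CSK4 is a synthetic lipopeptide that mimics bacterial lipoproteins. It binds the receptor pair TLR1 and TLR2, which signals through the adaptor MyD88 and kinases of the IRAK family to release NF-kB transcription factors from their inhibitors. NF-kB then switches on genes of cytokines and chemokines, and also genes of its own inhibitors, which end the response. GATA2 is a transcription factor of stem and progenitor cells, and the deleted enhancer is one of the distant elements that raise its expression.

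Gata2 (ENSMUSG00000015053.14, mm10 chromosome 6, 88193891 to 88207032) was examined first because it checks the labels. It stood at 35.1, 40.4, 54.7 and 43.4 CPM (counts scaled to a common library total) in the wild-type vehicle libraries and at 44.5, 47.8, 41.7 and 43.7 CPM with Pam3CSK4. In the mutant line it stood at 6.62, 8.03, 7.37 and 8.06 CPM with vehicle and at 7.68, 7.61, 7.78 and 7.20 CPM with Pam3CSK4. Every mutant library was below every wild-type library, and the Pam3CSK4 responses did not differ between lines (log2 difference -0.02, 95% interval -0.30 to 0.26). Of 10 hematopoietic progenitor markers, among them Kit, Cd34 and Ptprc, all passed the filter on low counts. Their summed level was 2880 to 3070 CPM in wild-type vehicle, 2930 to 3070 in wild-type Pam3CSK4, 3790 to 3850 in mutant vehicle and 3500 to 3610 in mutant Pam3CSK4 libraries. Of markers of other cells that a fetal liver culture could carry along, 3 of 15 T and NK cell genes and 2 of 10 hepatocyte genes passed the filter, with summed levels of at most 3.98 and 1.26 CPM. Of 14 stromal and endothelial genes 6 passed, and the fibroblast genes Col3a1, Dcn and Lum had no count. The summed level of this list was 33.5 to 42.4 and 39.4 to 45.3 CPM in wild-type vehicle and Pam3CSK4 libraries and 17.3 to 18.5 and 27 to 31.3 CPM in mutant libraries. It moved with the comparison, with 2 of the 6 called higher, Pdgfrb (0.56 ± 0.09) and Pecam1 (0.54 ± 0.14), and its part in the other results was not tested. Library totals of the 16 libraries lay between 47.5 and 66.3 M counts.

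The lines' responses to Pam3CSK4 differed in 3956 of 14869 genes (26.6%) by edgeR's quasi-likelihood test at a Benjamini-Hochberg adjusted p under 0.05, here called. Of these, 2130 had a more positive response in the mutant line (14.3% of genes tested, here called higher) and 1826 a more negative one (12.3%, called lower). At an unadjusted p under 0.05 there were 5472. Most differences were small: the median size of a called difference was 0.33 on the log2 scale, and 225 genes were called higher by at least 2-fold (1.51%) against 46 lower (0.309%). Genes called higher by more than 2 on the log2 scale included chemokine and cytokine genes (Cxcl10, Il1b, Ccl3), the feedback inhibitor gene Tnfaip3 and enzyme genes (Acod1, Nox1), all of which rose in both lines and more steeply in mutant cells. Genes called lower included Cxcr4, which holds progenitors in their niche, and Meis1, a homeobox factor of stem cells. Within each line, 3616 genes changed in mutant cells (24.3%; 1708 up, 11.5%, and 1908 down, 12.8%) and 3277 in wild-type cells (22%; 1540 up, 10.4%, and 1737 down, 11.7%). At least 2-fold rises numbered 213 in mutant (1.43%) and 86 in wild-type cells (0.578%), and at least 2-fold falls 62 (0.417%) and 103 (0.693%). With structural RNA share as covariate, a library property described below, 176 genes changed in wild-type cells (157 up) and 3907 in mutant cells. Without wild-type vehicle libraries 1 and 4 the wild-type count was 648, and without library 4 alone 2048. These 3 comparisons share libraries, so their values are given side by side and not as support for each other.

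**Figure D1:**
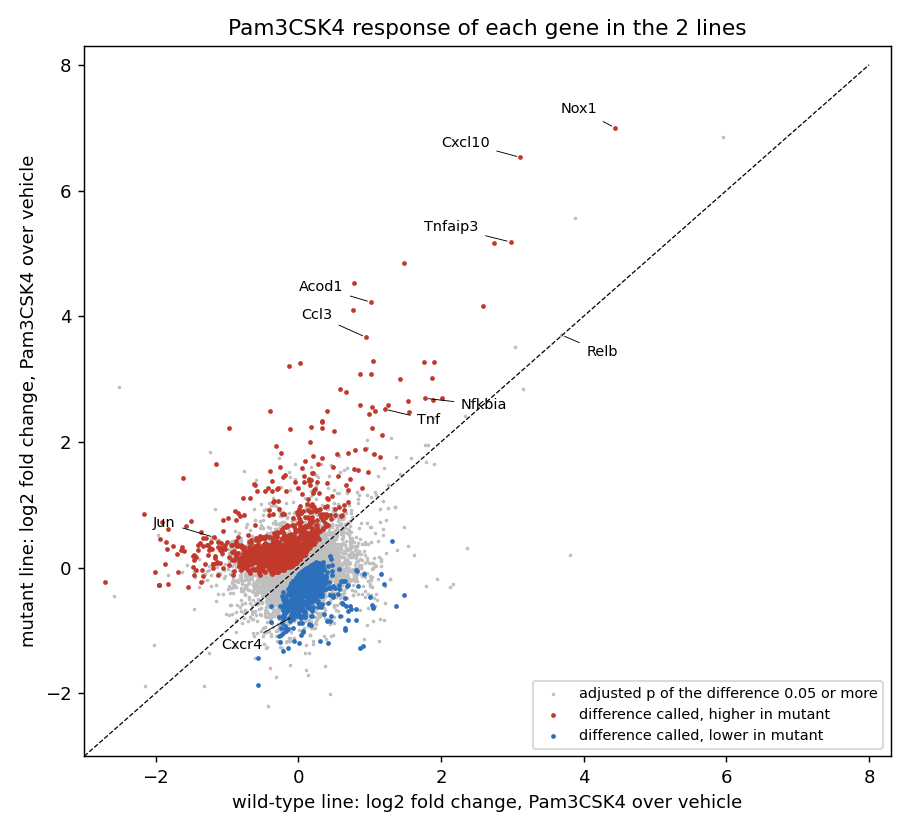
Each point is 1 of the 14165 genes with at least 10 counts in each of the 4 groups, placed by its log2 fold change from vehicle to Pam3CSK4 in wild-type (horizontal) and mutant cells (vertical); the dashed line marks equal responses. Red points were called higher and blue points called lower in mutant cells; Ccl3 (0.95 against 3.67) and Tnfaip3 (2.98 against 5.18) stand above the line, Relb (3.68 against 3.71) on it, and Cxcr4 (-0.07 against -0.78) below it.

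The promoters of the strongest members of the feedback inhibitor and cytokine lists, in each direction, are shown, since NF-kB is the factor that Pam3CSK4 is known to release; letters in capitals are matches to the NF-kB consensus. Each is the 250 bases before the RefSeq start, 5' to 3' on the gene's strand (GRCm38.p6). The strongest were taken among called genes that reached 1 CPM in some group, which leaves out Bcl3. The windows are chr10:19015411-19015660 for Tnfaip3, chr11:54962941-54963190 for Tnip1, chr5:92348890-92349139 for Cxcl10, chr2:129371140-129371389 for Il1b, chr3:95142355-95142604 for Tnfaip8l2 and chr3:107760470-107760719 for Csf1, all on the minus strand. The RefSeq start used for Tnfaip3 lies 247 bases from the GENCODE 5' end, so nearly all of its window is inside the GENCODE gene. Tnfaip3, Tnip1, Cxcl10 and Il1b were called higher, and Tnfaip8l2 and Csf1 lower.
Tnfaip3: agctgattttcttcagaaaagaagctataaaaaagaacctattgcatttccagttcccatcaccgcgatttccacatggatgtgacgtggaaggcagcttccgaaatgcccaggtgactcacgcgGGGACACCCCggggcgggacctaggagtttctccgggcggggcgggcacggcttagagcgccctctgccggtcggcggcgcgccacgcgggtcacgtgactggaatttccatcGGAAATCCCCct
Tnip1: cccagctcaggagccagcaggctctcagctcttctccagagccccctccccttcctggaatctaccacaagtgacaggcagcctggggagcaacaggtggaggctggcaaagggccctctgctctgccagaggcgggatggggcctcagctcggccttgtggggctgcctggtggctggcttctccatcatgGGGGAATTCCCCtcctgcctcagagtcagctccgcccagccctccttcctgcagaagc
Cxcl10: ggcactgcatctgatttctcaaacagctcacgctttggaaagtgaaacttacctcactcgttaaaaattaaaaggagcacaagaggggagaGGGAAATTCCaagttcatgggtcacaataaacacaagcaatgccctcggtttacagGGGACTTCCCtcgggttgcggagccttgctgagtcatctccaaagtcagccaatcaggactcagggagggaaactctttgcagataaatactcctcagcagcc
Il1b: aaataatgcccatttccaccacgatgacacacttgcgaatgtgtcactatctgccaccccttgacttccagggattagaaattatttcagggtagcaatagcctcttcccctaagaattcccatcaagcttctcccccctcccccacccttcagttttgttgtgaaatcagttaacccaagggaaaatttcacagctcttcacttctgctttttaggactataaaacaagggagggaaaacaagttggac
Tnfaip8l2: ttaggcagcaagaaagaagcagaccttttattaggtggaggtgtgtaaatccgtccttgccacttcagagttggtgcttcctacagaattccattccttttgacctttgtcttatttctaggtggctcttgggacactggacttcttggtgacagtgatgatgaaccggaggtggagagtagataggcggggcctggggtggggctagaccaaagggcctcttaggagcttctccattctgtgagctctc
Csf1: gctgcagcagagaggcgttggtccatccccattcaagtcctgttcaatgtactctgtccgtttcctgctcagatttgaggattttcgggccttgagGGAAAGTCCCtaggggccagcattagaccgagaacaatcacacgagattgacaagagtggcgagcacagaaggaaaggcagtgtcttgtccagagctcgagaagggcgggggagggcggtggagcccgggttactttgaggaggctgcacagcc
Both strands were searched for the NF-kB consensus and for the GATA motif AGATAA, including its forms with T in place of the leading A or G in place of the final one. Tnfaip3 held 2 NF-kB matches, Cxcl10 held 2, Csf1 held 1, and Tnip1 held 4 that overlap in 1 run. Il1b and Tnfaip8l2 held none in this window. Cxcl10, Il1b and Tnfaip8l2 each held 1 GATA match. Among the 9901 tested genes with a promoter in the RefSeq table, 4.25% held an NF-kB match, compared with 5.4% of 1574 called higher, 3.64% of 1429 called lower, and 13.9% (15 of 108) of those called higher by at least 2-fold. A GATA match stood in 17.2% of the 9901, 17.9% of those called higher, 16.4% of those called lower and 35.2% of the 108. Of the 20 genes called lower by at least 2-fold, 35% (7) held a GATA match and none an NF-kB match. Over all 32817 RefSeq promoters the shares were 3.9% and 26.6%. A match is a string of letters and not a measured binding site.

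Of 22 tested genes of TLR2 receptors and proximal signalling, 5 were called higher and 3 lower, where 14.3 and 12.3% of all genes were. The counts of the lists below are read against these shares. The differences named here were small except that of Irak2. Tlr2 (ENSMUSG00000027995.10, chromosome 3, 83836272 to 83841767), the lipopeptide receptor, rose in both lines: from 1.34, 1.18, 1.27 and 1.41 CPM to 2.00, 2.30, 2.35 and 2.66 CPM in wild-type cells, and from 4.98, 4.34, 5.62 and 5.14 CPM to 10.6, 10.1, 10.9 and 9.43 CPM in mutant cells. The mutant line held more Tlr2 RNA before and after treatment, while the difference of responses was 0.18 ± 0.16 (SE; 95% interval -0.14 to 0.51) and was not called; beside IFNg, in the other libraries, it was 0.63 ± 0.16 and was called (edgeR adjusted p = 0.00932). Tlr1, its partner, was at 0 to 0.0675 CPM in wild-type vehicle and 0.0593 to 0.237 CPM in wild-type Pam3CSK4 libraries, against 0.833 to 1.28 and 3.38 to 3.79 CPM in mutant libraries. No fold is given for Tlr1, since the wild-type vehicle libraries held 7 counts in all. Tlr6, the alternative partner (0.11 ± 0.17), the co-receptor gene Cd14 (0.10 ± 0.15) and the adaptor gene Myd88 (0.05 ± 0.06, 95% interval -0.07 to 0.17) were not called.

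Irak2 (ENSMUSG00000060477.14, chromosome 6, 113638467 to 113695026), a kinase-like protein that prolongs signalling from the receptor complex, had the large difference. In wild-type cells it was at 3.17, 3.20, 3.30 and 3.19 CPM with vehicle and 3.83, 3.73, 3.80 and 3.26 CPM with Pam3CSK4. In mutant cells it went from 2.19, 2.22, 1.55 and 1.49 CPM to 8.88, 8.87, 8.91 and 8.32 CPM. Mutant libraries were the lowest of all with vehicle and the highest of all with Pam3CSK4, and the difference was 2.06 ± 0.14 (edgeR adjusted p = 1.24e-13). The inhibitory pseudokinase gene Irak3 had a small called difference (0.22 ± 0.07; 0.82 in mutant and 0.59 in wild-type cells), as did Pik3ap1, which links TLRs to PI3 kinase (0.29 ± 0.04). Sigirr, a decoy receptor that dampens TLR signals, was called lower (-0.40 ± 0.06): it was 40.2 to 44.7 CPM in wild-type vehicle, 42.7 to 45.6 in wild-type Pam3CSK4, 59.0 to 63.2 in mutant vehicle and 46.1 to 52.5 CPM in mutant Pam3CSK4 libraries.

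Of the 5 NF-kB subunit genes, 2 were called higher and none lower. Nfkb2, which encodes p100, rose from 11.4, 12.2, 13.5 and 13.1 to 49.4, 51.7, 51.2 and 50.5 CPM in wild-type cells and from 11.8, 11.6, 12.7 and 12.4 to 82.5, 78.4, 79.6 and 74.6 CPM in mutant cells (difference 0.69 ± 0.09). The lines overlapped with vehicle and separated with Pam3CSK4. Nfkb1, which encodes p105, had a difference of 0.30 ± 0.04. Relb, a subunit that is itself an NF-kB target, rose from 0.561 to 0.977 CPM with vehicle to 9.71 to 11.4 CPM in wild-type cells, and from 1.90 to 2.33 CPM to 26.1 to 28.1 CPM in mutant cells. Both rises were about equal on the log2 scale (3.68 ± 0.12 and 3.71 ± 0.10), and the difference was 0.02 with a 95% interval of -0.31 to 0.36. The mutant line held more Relb RNA at both points.

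The feedback inhibitors of NF-kB had 9 of 16 members called higher and 1 lower, against 14.3 and 12.3% of all genes, with a median difference of 0.83 where the median over all genes was -0.01. Of the 16, 13 rose and 1 fell in mutant cells, against 11.5 and 12.8% of all genes. In wild-type cells 11 rose and 1 fell, against 10.4 and 11.7%. Tnfaip3 (ENSMUSG00000019850.11, chromosome 10, 19000910 to 19015657), which encodes the ubiquitin-editing enzyme A20, went from 2.21, 1.85, 2.21 and 2.07 to 16.3, 16.6, 16.9 and 15.9 CPM in wild-type cells. In mutant cells it went from 1.17, 1.11, 0.849 and 0.947 to 36.2, 38.6, 38.5 and 34.3 CPM. The mutant line started lower and ended higher without overlap at either point (mutant 5.18 ± 0.09, wild-type 2.98 ± 0.08, difference 2.21 ± 0.12, edgeR adjusted p = 2.26e-15). Tnip1 (ENSMUSG00000020400.17, chromosome 11, 54910785 to 54962917), the A20-binding partner, showed the same order: 16.8, 17.8, 19.1 and 17.7 to 37.2, 38.5, 36.2 and 34.6 CPM in wild-type and 12.9, 13.1, 12.1 and 14.1 to 64.0, 58.0, 63.0 and 58.2 CPM in mutant cells (difference 1.19 ± 0.08).

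Nfkbia (ENSMUSG00000021025.8, chromosome 12, 55489410 to 55492647), which encodes the classical inhibitor IkBa, started level in the lines, at 8.04 to 8.79 CPM in wild-type and 7.84 to 9.47 CPM in mutant vehicle libraries. It reached 28.5 to 29.6 CPM in wild-type and 51.9 to 61.4 CPM in mutant cells (difference 0.92 ± 0.09, edgeR adjusted p = 1.71e-09). Nfkbiz, a nuclear IkB protein that directs secondary response genes, went from 4.22 to 4.82 CPM up to 16.2 to 17.2 CPM in wild-type and from 5.21 to 5.93 CPM up to 40.1 to 51.7 CPM in mutant cells (1.14 ± 0.10). The inhibitor gene Nfkbie (1.11 ± 0.15), the RNase gene Zc3h12a that degrades cytokine transcripts (0.94 ± 0.12) and the linear deubiquitinase gene Otulin (0.49 ± 0.05) were also called higher. Bcl3, a nuclear IkB protein at 0.0788 to 0.417 CPM in wild-type vehicle libraries, was called at 1.58 ± 0.51, but not without wild-type vehicle library 3 (0.66, adjusted p = 0.348) or mutant vehicle library 1 (1.34, adjusted p = 0.0542), nor with structural RNA share as covariate (1.55, adjusted p = 0.0861). Tnip3 reached 6.11 to 7.16 CPM in wild-type and 35.3 to 38.5 CPM in mutant cells from 0.0641 to 0.138 and 0.256 to 0.337 CPM; its difference of 0.89 ± 0.31 was not called (adjusted p = 0.0684) and was called without wild-type vehicle library 3 (1.09, adjusted p = 0.0332). Tnfaip8l2 was the member called lower (-0.33 ± 0.11, adjusted p = 0.0275), at 14.3 to 18.4, 13.4 to 14.2, 15.1 to 16.9 and 10.6 to 12 CPM in wild-type vehicle, wild-type Pam3CSK4, mutant vehicle and mutant Pam3CSK4 libraries. That call was lost without any 1 of 4 libraries, with adjusted p from 0.0506 to 0.0723.

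**Figure D2:**
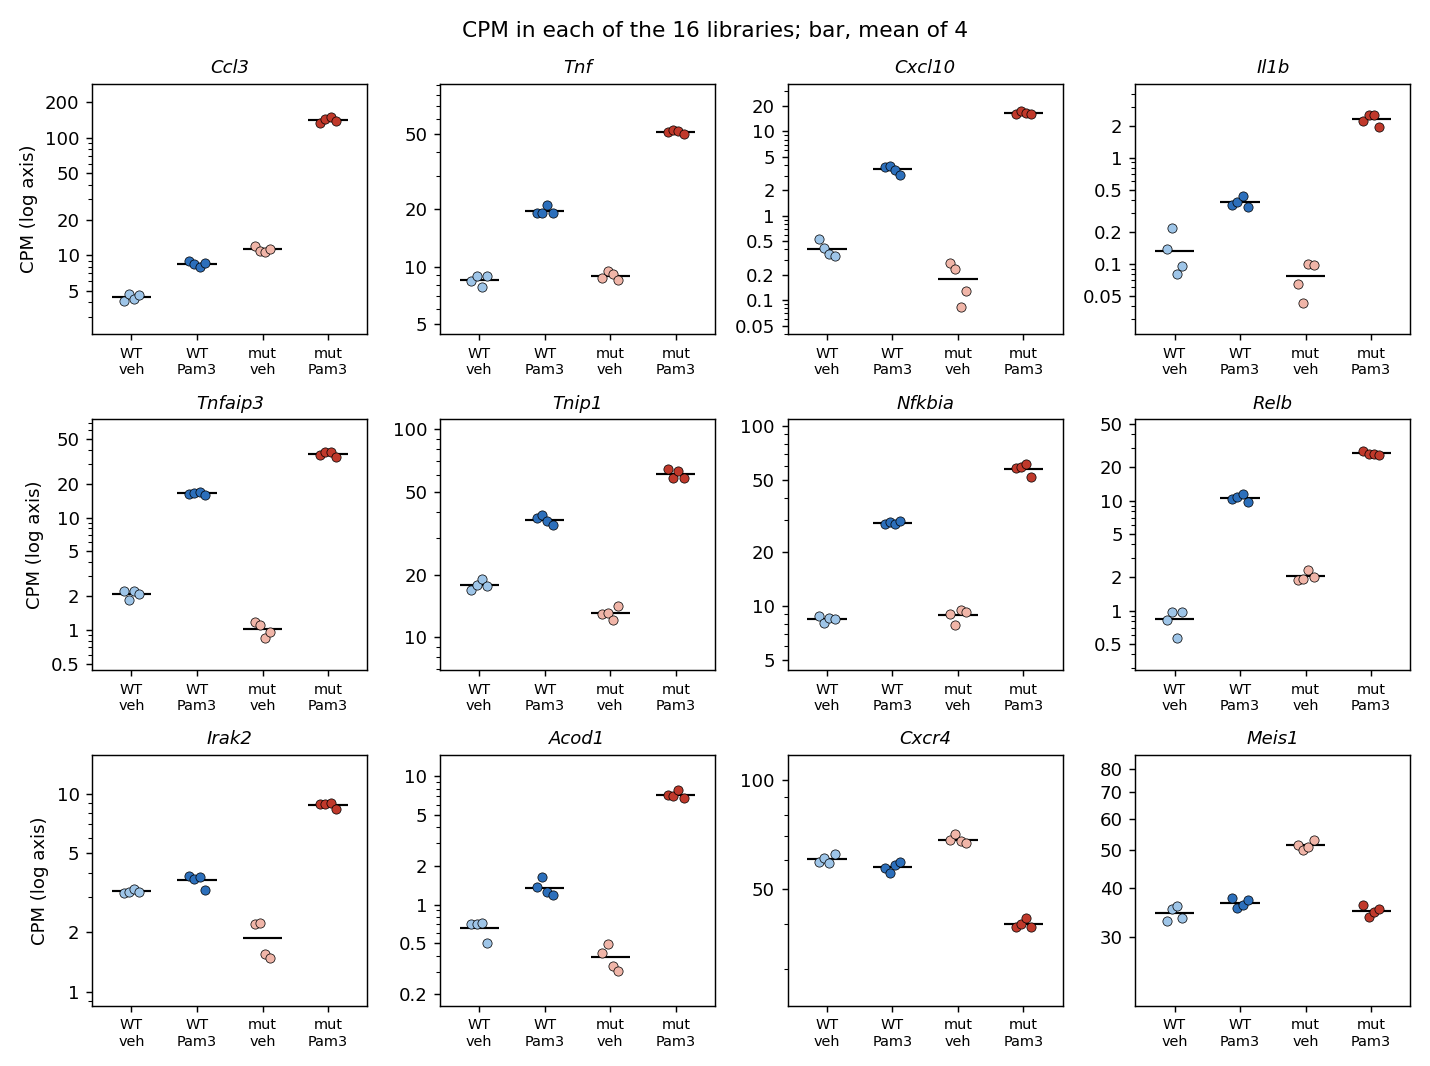
CPM on a log axis in each of the 16 libraries for 12 genes, by line (WT, wild-type; mut, mutant) and treatment (veh, vehicle; Pam3, Pam3CSK4), with a bar at the mean of 4. Mutant Pam3CSK4 libraries are above all others for Ccl3 (134 to 151 CPM) and Tnfaip3 (34.3 to 38.6 CPM), whereas Cxcr4 is lowest there (39.2 to 41.5 CPM).

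Other NF-kB targets had 15 of 26 tested members called higher and 1 lower, against 14.3 and 12.3% of all genes. Of the 26, 22 rose and 1 fell in mutant cells, against 11.5 and 12.8% of all genes. In wild-type cells 13 rose and none fell, against 10.4 and 11.7%. The median difference was 0.68 over the 20 members with at least 10 counts in each group. Tnfaip2, a gene first described as induced by tumour necrosis factor, was at 24.7, 26.6, 25.1 and 28.4 CPM with vehicle and 31.6, 37.8, 32.9 and 30.0 CPM with Pam3CSK4 in wild-type cells, against 7.81, 9.51, 8.12 and 8.27 CPM and 42.7, 42.2, 41.6 and 41.1 CPM in mutant cells (difference 1.98 ± 0.07). The vehicle libraries of the mutant line were far below those of the wild-type line and its Pam3CSK4 libraries above them. Slfn2, a schlafen family gene, rose from 0.146 to 0.278 CPM up to 2.29 to 4.13 CPM in mutant cells and from 1.09 to 1.24 CPM up to 1.84 to 2.07 CPM in wild-type cells (difference 3.33 ± 0.22). Schlafen genes are similar in sequence, so its counts may include reads of relatives. Icam1, an adhesion molecule (0.74 ± 0.07), Clec4e, a receptor for fungal and mycobacterial glycolipids (0.90 ± 0.11), Ptgs2, which makes prostaglandins (0.70 ± 0.08), Gadd45b, a stress response gene (1.56 ± 0.18), and Nod2, a sensor of bacterial cell wall (1.72 ± 0.38), were called higher too; Nod2 was not called with structural RNA share as covariate (1.33, adjusted p = 0.0583). Traf1, an adaptor induced by NF-kB, was at 0 to 0.0394 CPM and 0 to 0.089 CPM in wild-type vehicle and Pam3CSK4 libraries and at 0 to 0.0325 and 1.12 to 1.38 CPM in mutant libraries, with 256 of its 273 counts in the mutant Pam3CSK4 libraries.

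Of 24 tested cytokine and chemokine genes, 10 were called higher and 1 lower, against 14.3 and 12.3% of all genes. In mutant cells 14 rose and 2 fell, against 11.5 and 12.8% of all genes. In wild-type cells 6 rose and 2 fell, against 10.4 and 11.7%. Ccl3 (ENSMUSG00000000982.5, chromosome 11, 83647844 to 83649355), a chemokine that attracts monocytes and restrains stem cell division, went from 4.08, 4.64, 4.26 and 4.62 to 8.96, 8.40, 7.98 and 8.55 CPM in wild-type cells. In mutant cells it went from 12, 10.9, 10.6 and 11.3 to 134, 145, 151 and 138 CPM. Mutant libraries were above wild-type libraries with either treatment, and the gap widened with Pam3CSK4 (wild-type 0.95 ± 0.07, mutant 3.67 ± 0.06, difference 2.72 ± 0.09, edgeR adjusted p = 2.42e-22).

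Tnf (ENSMUSG00000024401.14, chromosome 17, 35199381 to 35202007), the archetypal inflammatory cytokine, overlapped between lines with vehicle, at 8.37, 8.95, 7.76 and 8.91 CPM in wild-type and 8.73, 9.51, 9.10 and 8.49 CPM in mutant cells. With Pam3CSK4 it was 19.2, 19.1, 21.2 and 19.2 CPM in wild-type and 51.4, 52.2, 51.9 and 49.8 CPM in mutant cells (difference 1.31 ± 0.07, edgeR adjusted p = 5.45e-16). The T cell chemokine gene Cxcl10 (identifier ENSMUSG00000034855.13, on chromosome 5 from 92346638 to 92348889) went from 0.532, 0.422, 0.353 and 0.334 to 3.78, 3.85, 3.54 and 3.06 CPM in wild-type and from 0.276, 0.235, 0.0832 and 0.128 to 16.1, 17.6, 16.7 and 16 CPM in mutant cells. The mutant line was lower with vehicle and higher with Pam3CSK4, without overlap (difference 3.42 ± 0.28, edgeR adjusted p = 1.35e-10). It was followed by Il1b (ENSMUSG00000027398.13, chromosome 2, 129364570 to 129371139), the precursor of interleukin 1 beta, which was low throughout: 0.0801 to 0.219 and 0.346 to 0.436 CPM in wild-type vehicle and Pam3CSK4 libraries, and 0.0427 to 0.0998 and 1.95 to 2.53 CPM in mutant libraries (3.37 ± 0.43, adjusted p = 6.35e-07). Il1rn, the natural antagonist of interleukin 1, was called at 1.36 ± 0.30.

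Ccl4, a chemokine neighbour of Ccl3, had a difference of 1.3 ± 0.39 at no more than 1.66 CPM, and Il6, a cytokine that was higher in mutant cells throughout (15.2 to 19.4 CPM with vehicle, 20 to 26 CPM with Pam3CSK4, against 6.73 to 8.55 and 5.87 to 7.12 CPM), one of 0.70 ± 0.15. Cxcl2, a neutrophil chemokine, had no counts in wild-type vehicle libraries, 2 in mutant vehicle libraries, 47 in wild-type and 826 in mutant Pam3CSK4 libraries, or 0.128 to 0.236 against 3.49 to 4.28 CPM with Pam3CSK4; no fold is given. Csf1, the macrophage growth factor, was the member called lower (-0.56 ± 0.15). It was 5.43 to 7.31 and 5.89 to 7.29 CPM in wild-type cells and 1.95 to 2.73 and 1.26 to 1.80 CPM in mutant cells, and without wild-type vehicle libraries 1 and 4 together it was not called (-0.41, adjusted p = 0.057), nor was Ccl4 (1.27, adjusted p = 0.0622). With structural RNA share as covariate Csf1, Ccl4 and Il6 were not called: Csf1 had -0.45 (adjusted p = 0.11), Ccl4 1.37 (0.0538) and Il6 0.35 (0.15).

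Enzymes and secreted proteins of innate defence followed. Of 12 oxidase, nitric oxide and itaconate genes, 5 were called higher and none lower, against 14.3 and 12.3% of all genes. Acod1 (ENSMUSG00000022126.6, chromosome 14, 103046977 to 103056573), which makes the antibacterial metabolite itaconate, went from 0.709, 0.708, 0.721 and 0.5 to 1.36, 1.63, 1.25 and 1.18 CPM in wild-type cells and from 0.422, 0.491, 0.333 and 0.305 to 7.13, 7.02, 7.76 and 6.77 CPM in mutant cells (difference 3.21 ± 0.22). Nox1, a superoxide-producing oxidase, rose steeply in both lines, from 0.208 to 0.276 CPM up to 4.85 to 5.09 CPM in wild-type and from 0 to 0.166 CPM up to 8.24 to 9.08 CPM in mutant cells (2.56 ± 0.44). Ncf1, a subunit of the phagocyte oxidase, showed a smaller difference at higher level (0.52 ± 0.04; 107 to 116 up to 138 to 145 CPM, and 137 to 140 up to 246 to 260 CPM).

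Of 7 tested complement and acute-phase genes, 3 were called higher and none lower, against 14.3 and 12.3% of all genes. The strongest differences came with a mutant level that was lower than the wild-type level at both points. The haemoglobin-binding protein gene Hp went from 23.9 to 27.5 CPM up to 52.1 to 56.7 CPM in wild-type and from 3.98 to 4.72 CPM up to 21.7 to 26.5 CPM in mutant cells (1.42 ± 0.09). The complement gene C3 went from 18.4 to 21.6 CPM up to 26 to 29.8 CPM and from 0.749 to 1.23 CPM up to 3.56 to 4.19 CPM (1.25 ± 0.13). Lcn2, an iron-sequestering protein, rose in mutant cells (0.79) and was not called in wild-type cells (0.14; difference 0.66 ± 0.17; 0.59 and not called, adjusted p = 0.0841, with structural RNA share as covariate). Saa3, an acute-phase apolipoprotein, rose from 0 to 0.0506 CPM to 7.86 to 9.14 CPM in wild-type and from 0 to 0.145 CPM to 12 to 13.7 CPM in mutant cells; the wild-type vehicle libraries held 7 counts in all, and no fold is given.

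**Figure D3:**
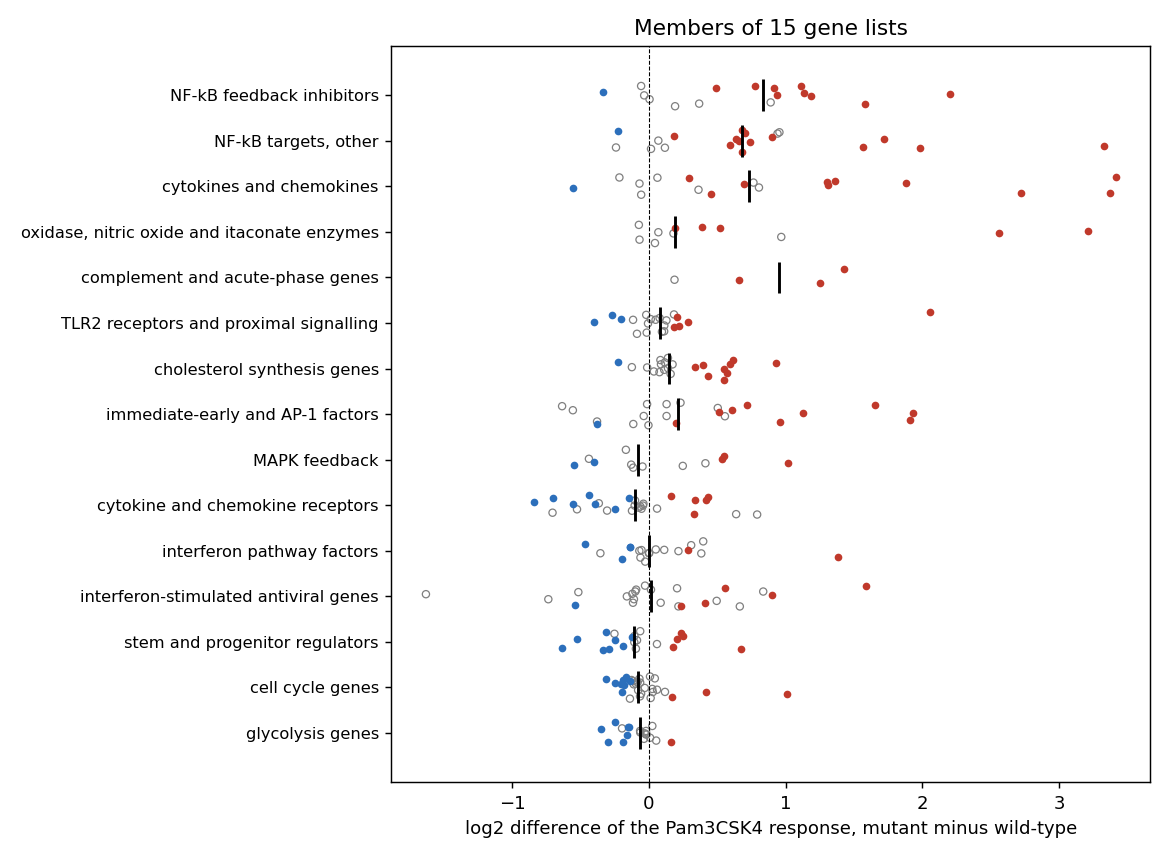
Log2 difference of the Pam3CSK4 response (mutant minus wild-type) for members of 15 gene lists with at least 10 counts in each of the 4 groups; filled points were called (red higher, blue lower), open points were not, and the bar is the median of the points shown. The medians lie at 0.83 for feedback inhibitors and 0.73 for cytokines and chemokines, and at 0.08 for TLR2 receptors and proximal signalling.

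Cytokine and chemokine receptors went both ways, with 5 of 29 called higher and 7 lower, against 14.3 and 12.3% of all genes. Their median was -0.10. With structural RNA share as covariate, 5 were called higher and 4 lower. Cxcr4 (ENSMUSG00000045382.6, chromosome 1, 128588199 to 128592293), the receptor for the niche chemokine CXCL12, was at 59.4, 60.9, 59.0 and 62.3 CPM with vehicle and 57.3, 55.2, 58.1 and 59.4 CPM with Pam3CSK4 in wild-type cells. In mutant cells it fell from 68.2, 71, 67.8 and 66.8 to 39.2, 40.1, 41.5 and 39.2 CPM, below every wild-type library (mutant -0.78 ± 0.04, wild-type -0.07 ± 0.04, difference -0.70 ± 0.06, edgeR adjusted p = 1.42e-11). Il6ra, the interleukin 6 receptor chain, was called at -0.55 ± 0.11 and Flt3, a growth factor receptor of lymphoid and myeloid progenitors, at -0.25 ± 0.05. Neither was called with structural RNA share as covariate (-0.36, adjusted p = 0.0795, and -0.15, adjusted p = 0.0736). The receptors for interferons split by chain: Ifngr1, which binds IFNg, was called lower (-0.39 ± 0.06; 102 to 107 down to 72.4 to 77.3 CPM in mutant cells), while its signalling partner Ifngr2 (0.34 ± 0.07) and the type I interferon receptor chain Ifnar1 (0.33 ± 0.04) were called higher. Tnfrsf1b, a receptor for TNF, was called at 0.42 ± 0.07.

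Of 24 inflammasome and cell death genes, 6 were called higher and 5 lower, against 14.3 and 12.3% of all genes. With structural RNA share as covariate, 4 were called higher and none lower. The higher ones included the inflammasome sensor gene Nlrp3, at 0.133 to 0.256 CPM with vehicle and 1.28 to 1.52 CPM with Pam3CSK4 in mutant cells against 0.737 to 1.01 and 1.26 to 1.95 CPM in wild-type cells (2.21 ± 0.36). The lines overlapped with Pam3CSK4, and were separate with vehicle. Casp4, the caspase that senses intracellular lipopolysaccharide, reached 3.98 to 4.65 CPM in mutant and 0.934 to 1.07 CPM in wild-type cells from 0.418 to 0.491 and 0.128 to 0.473 CPM (1.37 ± 0.27; 0.88 and not called, adjusted p = 0.0848, without wild-type vehicle libraries 1 and 4 together). Casp1, which cleaves the interleukin 1 beta precursor, had a difference of 0.59 ± 0.14.

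Counts in interferon-regulated groups are read against the 26.6% of all genes called. Interferon pathway factors had 2 of 20 called higher and 4 lower, antiviral genes 5 and 1 of 28, GBP and IRG GTPases 1 and 1 of 17, and MHC class I presentation 5 and 1 of 20. With structural RNA share as covariate, 1 of the 20 interferon pathway factors was called higher and 1 lower. Socs3, a feedback inhibitor of cytokine receptors, was called higher (1.39 ± 0.14), at 6.05 to 7.24 CPM in mutant Pam3CSK4 libraries and 1.15 to 2.85 CPM in all others. Irf1, a transcription factor of the interferon response, fell in mutant cells from 21.5 to 24.8 CPM to 16.2 to 18.9 CPM and was at 10.4 to 12.1 and 11.8 to 12.5 CPM in wild-type cells (difference -0.47 ± 0.06). Irf8, a factor of monocyte and dendritic cell fate, was not called (0.11 ± 0.07). Among antiviral genes Samd9l rose in mutant cells and fell in wild-type cells (1.59 ± 0.15), and Rtp4 was called lower (-0.54 ± 0.07). Gbp3, a GTPase against intracellular microbes, rose in both lines (difference 1.51 ± 0.23), the MHC gene H2-Q4 was called higher (0.72 ± 0.10), with reads that may be shared with near-identical relatives, and the peptide transporter gene Tap1 lower (-0.30 ± 0.06).

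Immediate-early and AP-1 genes had 9 of 22 called higher and 1 lower, against 14.3 and 12.3% of all genes. In mutant cells 10 rose and 3 fell, against 11.5 and 12.8% of all genes. In wild-type cells 2 rose and 4 fell, against 10.4 and 11.7%. Jun, an AP-1 subunit, was at 5.08, 5.89, 8.65 and 6.22 CPM in wild-type vehicle libraries and fell to 2.46, 3.14, 2.91 and 2.98 CPM, but went from 3.85, 3.55, 4.26 and 3.47 to 5.88, 4.81, 5.82 and 4.56 CPM in mutant cells (1.66 ± 0.18). Jund (1.94 ± 0.38) and Btg2, an antiproliferative gene (1.12 ± 0.27), were called as well. The wild-type vehicle libraries were spread for Jund (2.58 to 7.63 CPM), and they also differed in structural RNA, described below. In a fit with that share as covariate, 2 of the 22 were called higher, and Btg2 was not called (1.01, adjusted p = 0.0533). Genes that restrain MAP kinases split: Dusp16, a JNK and p38 phosphatase (1.02 ± 0.07; 19.6 to 20.4 CPM in mutant Pam3CSK4 libraries and 8.29 to 12.5 in the others), Dusp2 (0.55 ± 0.09) and the RAS inhibitor gene Spred1 (0.54 ± 0.06) were called higher. The ERK phosphatase genes Dusp5 (-0.55 ± 0.11) and Dusp6 (-0.40 ± 0.04) were called lower, Dusp6 falling from 185 to 191 CPM to 133 to 141 CPM in mutant cells and lying at 121 to 133 CPM in wild-type cells.

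Stem and progenitor regulators had 5 of 21 called higher and 8 lower, against 14.3 and 12.3% of all genes, with a median of -0.10. In mutant cells 5 rose and 12 fell, against 11.5 and 12.8% of all genes. Meis1 (ENSMUSG00000020160.18, chromosome 11, 18879817 to 19018985) fell in mutant cells from 51.4, 49.9, 51.0 and 53.0 to 36.2, 33.9, 34.9 and 35.4 CPM and was at 33.0, 35.4, 36.0 and 33.7 CPM and 37.7, 35.6, 36.2 and 37.4 CPM in wild-type vehicle and Pam3CSK4 libraries (difference -0.64 ± 0.05). The fall brought the mutant line to the wild-type level. Myb, a progenitor transcription factor, was called at -0.33 ± 0.06 and Erg, a factor of stem cell maintenance, at -0.29 ± 0.07. In the fit with structural RNA share as covariate 2 of the 21 were called higher and 5 lower, and Erg was not called (-0.10, adjusted p = 0.38). Ikzf2, an Ikaros family gene, was called higher (0.67 ± 0.10) from a mutant baseline of 6.6 to 7.66 CPM against 33.1 to 36.5 CPM in wild-type cells.

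Some markers of mature lineages also differed, and in bulk RNA fewer cells of a type and less RNA per cell cannot be told apart. Counts in these lists are read against the 14.3% of all genes called higher and 12.3% called lower. With structural RNA share as covariate, 19 of all genes tested fell in wild-type cells, against 1737 in the main fit. Neutrophil genes had 7 of 21 called higher and 2 lower. In wild-type cells 12 fell and none rose, against 11.7 and 10.4% of all genes. In mutant cells 5 rose and 2 fell, against 11.5 and 12.8%. The summed level of the neutrophil genes was 3670 to 3800 CPM in wild-type vehicle and 3550 to 3650 in wild-type Pam3CSK4 libraries, against 2630 to 2730 and 2540 to 2640 CPM in mutant libraries. Cebpd, a granulocyte and inflammation factor, fell from 3.76 to 6.27 CPM to 3.09 to 3.59 CPM in wild-type cells and rose from 3.34 to 4.50 CPM to 8.32 to 10.1 CPM in mutant cells (1.80 ± 0.19). Anxa1, an anti-inflammatory protein of granulocytes (0.71 ± 0.11), and the antimicrobial peptide gene Camp (1.29 ± 0.28; below 1 CPM in mutant and 6.77 to 12.2 CPM in wild-type libraries) were called higher. In the fit with structural RNA share as covariate, 2 of the 21 neutrophil genes were called higher and none lower, and Camp was not called (0.74, adjusted p = 0.119).

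Erythroid and megakaryocyte genes had 4 of 21 called higher and 1 lower. Their summed level went from 1170 to 1350 CPM with vehicle to 1510 to 1550 CPM with Pam3CSK4 in wild-type libraries and from 998 to 1080 CPM to 1780 to 1940 CPM in mutant libraries, with no overlap between treatments in either line. In wild-type cells 2 of the 21 rose and 9 fell, against 10.4 and 11.7% of all genes. In mutant cells 3 rose and 1 fell, against 11.5 and 12.8%. The rise of the sums was therefore not shared by most members. The limit on wild-type falls given above holds here too. Gfi1b, a repressor needed for red cell and platelet development, went from 16 to 19.6 CPM to 18.7 to 21.1 CPM in wild-type and from 15.5 to 19.0 CPM to 43.9 to 49.7 CPM in mutant cells (1.25 ± 0.10). The transferrin receptor gene Tfrc was called higher as well (0.66 ± 0.08). Of 19 monocyte and dendritic cell genes, 4 were called higher and 3 lower, with Cx3cr1, the fractalkine receptor, rising from 0.865 to 1.07 CPM to 5.30 to 5.78 CPM in mutant cells and from 4.35 to 4.81 CPM to 5.56 to 6.48 CPM in wild-type cells (2.10 ± 0.18). The inhibitory antibody receptor gene Fcgr2b was called at 0.58 ± 0.08. Mast cell genes had 1 called higher and 2 lower of 14, and early B lymphoid genes none higher and 2 lower of 14. For the difference of responses, the counts called in the lists of this paragraph were near the shares over all genes.

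Metabolic groups are likewise read against the 14.3% of all genes called higher and 12.3% called lower. Among them, cholesterol synthesis had 9 of 22 genes called higher and 1 lower. In mutant cells 9 members rose and 1 fell, against 11.5 and 12.8% of all genes. In wild-type cells none rose and 6 fell, against 10.4 and 11.7%. The limit on wild-type falls given for the neutrophil genes holds here too. Msmo1, a sterol oxidase, fell from 178 to 207 CPM to 131 to 153 CPM in wild-type cells and rose from 97.2 to 114 CPM to 123 to 162 CPM in mutant cells (0.93 ± 0.14). Hmgcs1, the first committed enzyme of the pathway (0.59 ± 0.12), and Hsd17b7 (0.62 ± 0.11) had called differences of the same sign. Glycolysis genes had 1 of 19 called higher and 7 lower, among them the glucose transporter gene Slc2a1 (-0.34 ± 0.07) and the hexokinase gene Hk2 (-0.30 ± 0.07), and cell cycle genes 3 and 8 of 31. In the fit with structural RNA share as covariate, none of the 19 glycolysis genes was called (Slc2a1 -0.26, adjusted p = 0.0679; Hk2 -0.11, adjusted p = 0.264), nor any cell cycle gene lower, while 10 cholesterol genes were called higher. Ribosome biogenesis genes, with 5 of 24 called higher and 3 lower, were near the background of all genes.

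Outside the lists, the greatest called rises at 5 CPM or more in some group included Icosl, a costimulatory ligand (2.41 ± 0.32; 0.101 to 0.217 up to 0.934 to 1.24 CPM in wild-type and 0.177 to 0.349 up to 7.59 to 9.44 CPM in mutant cells). Dgat2, which makes triglycerides, went from 7.82 to 9.01 CPM to 11.2 to 12.8 CPM in wild-type and from 2.31 to 3.15 CPM to 18.5 to 22.2 CPM in mutant cells (2.27 ± 0.13). The neuronal tubulin gene Tubb3 reached 1.66 to 1.92 CPM from 0.133 to 0.256 CPM in mutant cells and stayed at 4.42 to 5.65 CPM in wild-type cells (3.23 ± 0.20). Among the greatest falls were B4gat1, a glycosyltransferase (-2.16 ± 0.49, with wild-type vehicle libraries spread from 3.31 to 13.8 CPM; -0.99 and not called, adjusted p = 0.188, with structural RNA share as covariate), the organic cation transporter gene Slc22a3 (-0.87 ± 0.08), Nynrin (-0.84 ± 0.11), the sphingosine phosphate receptor gene S1pr1, which guides cell egress (-0.83 ± 0.13), and the cholesterol exporter gene Abcg1 (-0.80 ± 0.09). The 12 greatest rises by this rule also held structural or multicopy transcripts, of which some are given here. They included Rpph1, the RNA of RNase P (2.26 ± 0.56), and the gene model AY036118 (2.80 ± 0.68). Another was the histone gene Hist1h2ao (2.23 ± 0.60), whose reads may be shared with its copies. With the covariate Rpph1, Hist1h2ao and AY036118 were not called, at 0.58 (adjusted p = 0.441), 0.82 (0.478) and 2.71 (0.0513).

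These transcripts bring in a library property that moved with the groups. Structural RNA here means all genes of the mitochondrial chromosome, protein-coding ones included, with microRNA and small structural RNA genes. Its summed share was 25.8, 19.4, 21.9 and 28.8% of counts in the wild-type vehicle libraries and 14.8 ± 1.47% (SD, n = 4, range 13.6 to 16.9%) with Pam3CSK4. In mutant libraries it was 25.8 ± 1.78% (23.5 to 27.9%) with vehicle and 27.3 ± 2.12% (25.2 to 30.3%) with Pam3CSK4. Only the wild-type groups separated, so in that line the share and the treatment cannot be told apart. With the share as a covariate, 1213 genes were called, 679 of them higher, and 1041 were among the 3956; 88 were higher and 26 lower by at least 2-fold. Without wild-type vehicle libraries 1 and 4, which had the highest shares of their group, 2444 genes were called (1274 higher), 2273 of them among the 3956. In these settings the feedback inhibitors had 8 and 9 members called higher and 1 lower, other NF-kB targets 12 and 14 higher and 1 lower, and cytokines and chemokines 5 and 7 higher.

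**Figure D4:**
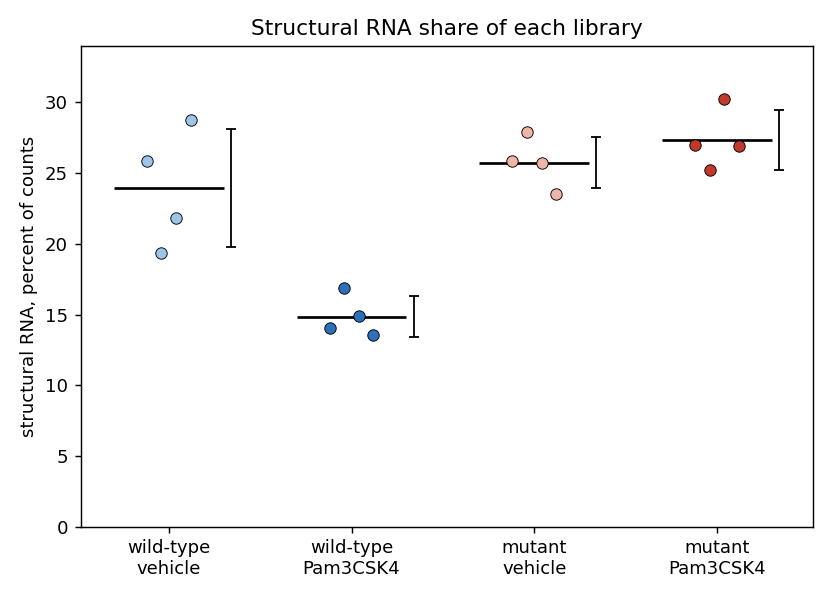
Structural RNA, mitochondrial protein-coding genes included, as a percentage of counts in each of the 16 libraries, with a bar at the mean and an error bar of 1 SD (n = 4). Wild-type Pam3CSK4 libraries lie at 13.6 to 16.9%, below the 19.4 to 30.3% of the other 12 libraries.

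The same genotype difference was measured a second time in the 16 libraries that received IFNg, which share none with those above, as the response to added Pam3CSK4 in the presence of IFNg. There 1111 genes were called (7.47%), 600 higher (4.04%) and 511 lower (3.44%), against 3956 without IFNg. With structural RNA share as covariate the count was 1185 beside IFNg and 1213 without it. Without wild-type vehicle libraries 1 and 4 it was 1249 beside IFNg and 2444 without it. The gap between the counts of the main fit is therefore not read as a narrower difference beside IFNg, and its cause was not tested. Of the 2130 genes called higher without IFNg, 88.8% had a positive difference beside IFNg, 401 (18.8%) were called higher again and 1 was called lower. Of the 1826 called lower, 84.4% had a negative difference, 342 (18.7%) were called lower again and 9 higher. For the genes called higher without IFNg, the median difference was 0.39 without IFNg and 0.17 beside it. For those called lower it was -0.28 and -0.11. These genes were chosen by their values without IFNg, so the 2 medians do not stand on equal terms. Over all genes called in each set of libraries on its own, which are different genes, the median size of a called difference was 0.33 without IFNg and 0.31 beside it. Of those called by at least 2-fold, 69 of 225 higher and 2 of 46 lower were called again. Called higher again were 7 of the 9 feedback inhibitors, 13 of the 15 other targets, 7 of the 10 cytokines and chemokines and all 9 cholesterol genes. The counts of these lists and the next are read against all called genes, of which 18.8% (higher) and 18.7% (lower) were called again. Called again in the same direction were 3 immediate-early genes (9 higher and 1 lower without IFNg) and 2 cell cycle genes (3 and 8). For glycolysis (1 and 7) and antiviral genes (5 and 1) it was 1 each. Of 17 GBP and IRG GTPases, with 1 called higher and 1 lower without IFNg, none was called higher and 8 lower beside it. All genes had 4.04 and 3.44% called there. Tnfaip3 had 2.22 ± 0.13 beside IFNg and 2.21 without, Nfkbia 0.91 ± 0.09 and 0.92, Ccl3 2.40 ± 0.08 and 2.72, Irak2 1.84 ± 0.13 and 2.06, and Cxcr4 -0.61 ± 0.06 and -0.70.

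The 2 differences were compared directly over all 32 libraries. This test called 137 genes (0.921%), 27 with a more positive difference without IFNg (0.182%) and 110 with a more negative one (0.74%); DESeq2 called 330. Cxcl10 had a difference of 3.42 without IFNg and 1.10 ± 0.09 beside it (change 2.31 ± 0.29, edgeR adjusted p = 3.36e-05), Gbp3 1.51 and 0.03 ± 0.10 (adjusted p = 0.0019), and Socs3 1.39 and 0.67 ± 0.10 (adjusted p = 0.034). Slfn2 (3.33 and 1.11), Tubb3 (3.23 and 0.49) and Tnfaip2 (1.98 and 1.3) changed in the same sense. Irf1 was called lower without IFNg (-0.47) and had -0.01 ± 0.06 beside it (adjusted p = 0.00289), and Ifngr2 had 0.34 without and 0.77 ± 0.07 beside IFNg (adjusted p = 0.0202).

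**Figure D5:**
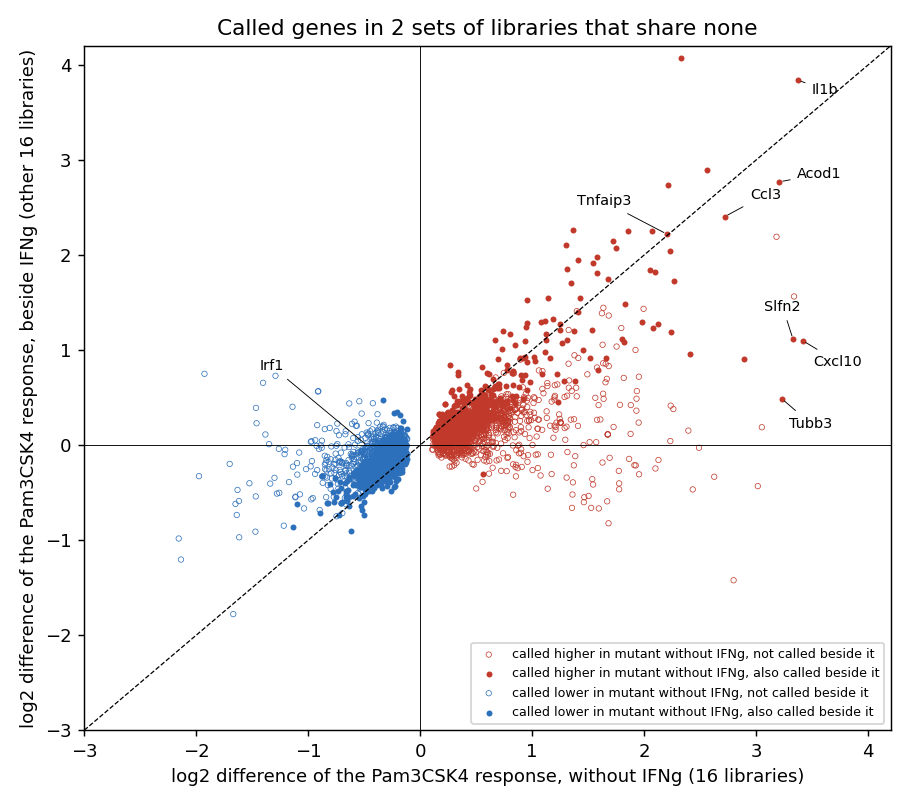
Log2 difference of the Pam3CSK4 response for the genes called without IFNg that had at least 10 counts in each of the 4 groups, in those 16 libraries (horizontal) and beside IFNg in the other 16 (vertical); red were called higher and blue lower, and filled points were also called beside IFNg. Ccl3 and Tnfaip3 lie near the dashed line of equal values, while Cxcl10 (3.42 and 1.10) and Tubb3 (3.23 and 0.49) lie below it.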

How the data were processed

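The deposited tables, 1 per library, hold expected counts per gene, as the authors made them with STAR 2.5.2b and RSEM 1.3.0 on the mouse build mm10, per the submitters' processing notes. RSEM assigns ambiguous reads by maximum likelihood. No source used here gives the annotation release or the strand setting, so values of overlapping, antisense or near-identical genes are uncertain. Libraries were stranded total RNA depleted of ribosomal RNA, per the labels' protocols.

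Of 55487 identifiers, 55394 matched GENCODE vM21, which gave symbols and mm10 coordinates. Values were rounded; 11.1% of those above 0 held a fractional part. After edgeR's filter on low counts 14869 genes were tested and 40618 left out. All 32 libraries (44.2 to 71.4 M counts) were fitted by edgeR's quasi-likelihood model with robust dispersions and TMM scaling, with 24 residual degrees of freedom. P-values were adjusted by Benjamini-Hochberg over all genes tested within each contrast. Values are CPM, log2 differences have SE or 95% intervals from the fit, and low totals limit precision, so no fold is given where a group held fewer than 10 counts.

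The lists and members were chosen with earlier results of these data known. Genes named are a fixed set of pathway genes, up to 12 in each direction by size (5 CPM in some group, 10 counts in each group) and up to 5 in each direction per list (1 CPM), from which the text gives a selection; Traf1, Cxcl2, Tnip3, Otulin, Bcl3, Ccl4, Il6, Ptgs2 and Icam1 fall outside that rule and were chosen after their values were seen. Some genes are not reported here. The fit was tested on simulated data. Alternatives were DESeq2, RLE scaling, other filters, the libraries of the contrast alone, a replicate block, structural RNA as a covariate or left out, unrounded counts, and libraries left out. R 4.3.3 with edgeR 4.0.16, limma 3.58.1 and DESeq2 1.42.0, and Python 3.11.15 with pandas 2.3.3, numpy 2.4.6 and matplotlib 3.10.9 were used.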

Additional observations from a re-analysis of the deposited data

Results flagged for a closer look

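The difference between genotypes was itself tested for each gene, and 3956 genes were called. For 17 of the genes named, the direct test between the 2 sets of libraries was also called. The log2 difference without IFNg exceeded that beside IFNg by 2.74 for Tubb3, 2.31 for Cxcl10, 2.22 for Slfn2, 1.48 for Gbp3, 1.46 for Icosl, 1.07 for Gadd45b, 0.77 for Casp1, 0.71 for Socs3, 0.69 for Tnfaip2, 0.54 for H2-Q4 and 4.22 for the gene model AY036118. It was smaller by a change of -0.66 for Nynrin, -0.55 for Slc22a3, -0.45 for Irf1, -0.44 for Rtp4, -0.43 for Ifngr2 and -0.30 for Meis1.

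In 23 groups of 4 values, 5.87% of those examined (4 for each gene named, and the library totals and structural RNA shares), 1 library stood far from the other 3; chance gives about 1 in 20 such groups, so the number is close to that of chance. In wild-type vehicle libraries these were Cd14 (4.12 CPM), Samd9l (16), Fcgr2b (43.8) and Bcl3 (0.417) in library 3, Acod1 (0.5) in library 4 and Nox1 (0.276) in library 1. In wild-type Pam3CSK4 libraries they were Tnf (21.2 CPM) and Otulin (42.4) in library 3, Samd9l (15.1) in library 4, Gbp3 (0.840) and Dgat2 (11.2) in library 2, and Icosl (0.934) in library 1, whose total of 60.4 M counts also stood apart. In mutant vehicle libraries they were Sigirr (59.0 CPM) and Tnfaip8l2 (15.1) in library 1, C3 (0.749) in library 3, and Lcn2 (1.15) and Tnip3 (0.256) in library 2, whose total was 50.3 M. In mutant Pam3CSK4 libraries they were Irak2 (8.32 CPM), Nlrp3 (1.28) and Tap1 (51.7) in library 4 and Slc22a3 (1.95) in library 3.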

How the results depend on the processing

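The count of 3956 genes was 4156 with DESeq2, 3952 with RLE scaling, 3365 with no filter, 4174 with a minimum of 1 CPM, 3718 with the 16 libraries alone, 3878 without structural genes, 3962 unrounded, and 3357 to 4583 leaving out 1 library. It moved to 1213 with structural RNA share as covariate and 2444 without wild-type vehicle libraries 1 and 4. The wild-type response moved to 176 and 648 genes in those settings, and to 2048 to 4099 leaving out 1 library (lowest without wild-type vehicle library 4). The 137 genes that depended on IFNg became 330 with DESeq2 (39.1% of them more positive without IFNg, against 19.7%), 76 with the covariate, 91 without structural genes, 60 without those libraries, and 50 to 284 leaving out 1; the cause was not tested. Leaving out 1 library gave 768 to 1296 genes beside IFNg and 2966 to 3537 in mutant cells.

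Of 88 called genes named, all stayed called with DESeq2, RLE scaling, 1 CPM, the replicate block and unrounded counts. Same-numbered libraries did not deviate together (r from -0.12 to 0.06 over 24 pairs); the block gave 3917 genes, 3842 of them among the 3956. With the covariate 17 lost the call. Their size stayed within 1.5 times for AY036118, Bcl3, Btg2, Ccl4, Csf1, Lcn2, Nod2 and Slc2a1 and moved further for B4gat1, Camp, Erg, Flt3, Hist1h2ao, Hk2, Il6, Il6ra and Rpph1. Bcl3 lost it in the 16 libraries alone (adjusted p = 0.0538), and Irak3 with no filter (0.0849) and without wild-type vehicle library 2 (0.0536). None reversed. Uncalled values near 0 changed sign: Gata2 (0.11) and Relb (-0.092) without those libraries, and Relb (-0.023) and Cd14 (-0.0035) with the covariate. Leaving out 1 library gave -0.15 to 0.070 for Gata2, -0.016 to 0.21 for Cd14 and -0.073 to 0.19 for Relb.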
